A study of Mus musculus with 2 samples.

Results

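Activated matrix fibroblasts were sought among the single nuclei of mouse sarcomas driven by the fusion CIC::DUX4, by transcript counts alone. A nucleus passed the F rule when 7 fibroblast genes (Pdgfra, Dcn, Lum, Col3a1, Col1a1, Col1a2 and Fbln1) made up at least 30 of every 10,000 UMIs (unique molecular identifiers, 1 per captured transcript) with at least 4 of them detected. It was a member when the UMIs of Postn, Nox4, Kif26b, Itgbl1, Adam12 and Pappa (A) outnumbered those of Abca8a, Scara5, Pi16, Dpp4, Gsn and Cd34 (Q). Of 60121 filtered nuclei, 14183 passed the F rule and 10825 were members, while 1275 had more Q than A (the quiescent group) and 2083 were tied. The members were thus chosen by measured levels of these 19 genes, which are given as a description.

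The tumors were raised in dFLEx CDS mice, in which the fusion is switched on only by Cre and FLPe together, delivered as plasmids into hind limb muscle, so each tumor starts in a mixed tissue. The label of the untreated sample gives the genotype as dFLEx CDS +/-, and the other label gives none. The 4 untreated tumors were compared with 4 tumors from mice given Minnelide, a prodrug of the transcription inhibitor triptolide, at 0.42 mg/kg for 21 days. The study took treated tumors with both good and poor responses, which the labels do not tell apart, so the Minnelide group is mixed. Tumor numbers are names only, and the labels give no age or sex. Filtered nuclei numbered 4846 to 11449 per tumor, and members had median depths of 2437.5 to 3753.5 UMIs. Untreated 1 stood apart in myocyte and other non-fibroblast transcripts, and without it edgeR still called 0 genes for Minnelide in members and in A-rich members. Of 28 tumor pairs, 3 shared member barcodes, 10 in all, and these were untreated and Minnelide tumors 1 (7 barcodes), 2 (1) and 3 (2), with 0 shared within a group. The study used on-chip multiplexing, and neither its methods nor the labels say which tumors were captured together. If each group was captured apart from the other, treatment and capture cannot be told apart. The part of capture in the comparisons was not tested.

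Fibroblasts of injured or tumor-bearing tissue secrete the collagenous matrix. On activation, classically by TGF-β, they raise Postn (periostin, a matricellular protein) and Nox4 (an NADPH oxidase), whereas resting interstitial fibroblasts express Pi16, Dpp4 and Cd34.

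The label held for only some of the members. CIC::DUX4 tumor cells express Etv1, Etv4, Etv5, Shc3, Shc4, Vgf, Spred2, Muc5ac and Ccne1, and these 9 tumor markers were summed in each nucleus as a check. In members with A under 10 per 10,000 UMIs (3675 nuclei), the median was 77.3 to 252.8 tumor marker UMIs per 10,000 across the 8 tumors, which was 0.928 to 1.12 times the median of nuclei outside the F rule in the same tumor. In members with A of 80 or more (1383 nuclei), it was 16.3 to 80.2, or 2.41 to 5.11 times lower than at A under 10. That level lay at 0.806 to 1.45 times the median of nuclei gated on endothelial markers outside the F rule. The study describes tumor cells that express endothelial genes, so this gate may hold some, and it is no sure measure of background. Myocyte-gated nuclei had medians of 23.9 to 112.2. In all 8 tumors the level was lower at the high end of A than at the low end, and the 10825 members are therefore called by their rule and not by a cell type.

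**Figure D1:**
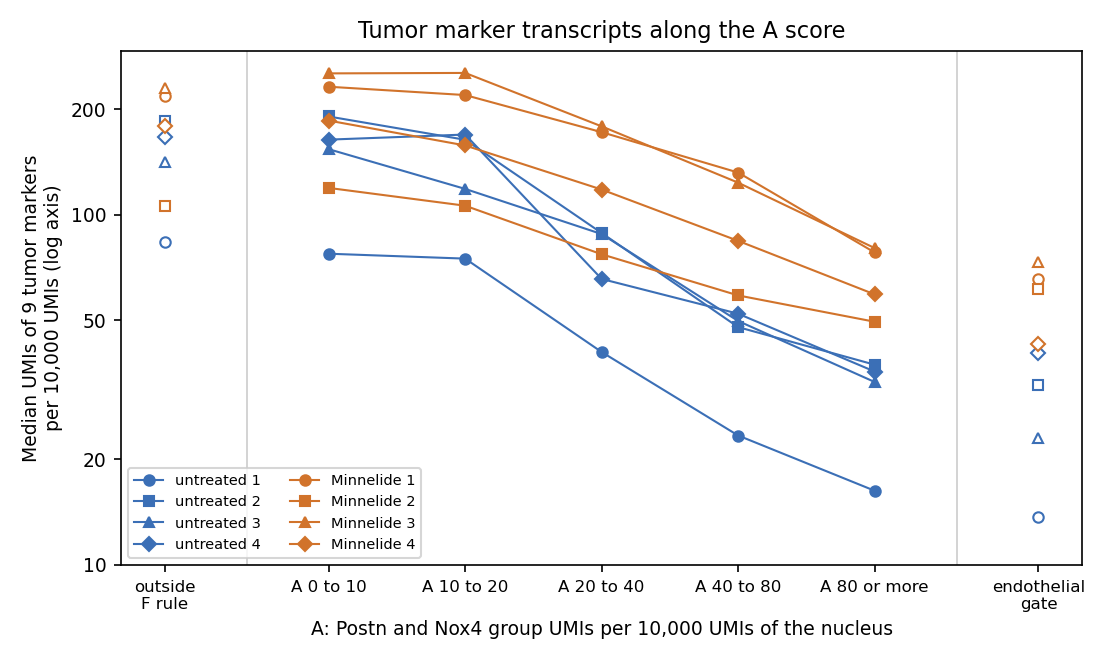
Median summed UMIs of 9 tumor markers per 10,000 UMIs (log axis) in members by A (filled symbols and lines, 1 line per tumor), in nuclei outside the F rule (left, open) and in endothelial-gated nuclei (right, open). Members at A under 10 sit with the nuclei outside the F rule, and those at A of 80 or more (16.3 to 80.2) sit with the endothelial nuclei.

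The 3153 members with A of at least 40 per 10,000 are called A-rich below, a cut chosen after the tumor marker levels were seen. They numbered 654, 368, 609 and 182 in the untreated and 612, 272, 260 and 196 in the Minnelide tumors, in tumor order, and had 2920 to 4926.5 median UMIs. Weak members were close to the threshold of the rule, and 12.8 to 25.5% of members in a tumor had only 1 UMI more of A than of Q. Around the F threshold, 8 to 240 members per tumor had an F of 30 to 33, and 16 to 246 nuclei with A above Q had an F of 27 to 30 and were not members.

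In A-rich members the 6 genes of A varied between tumors. Postn was at 1300, 2050, 1837 and 2986 CPM (counts scaled to the same total per tumor) in the untreated tumors and at 2205, 1700, 1794 and 2232 in the Minnelide tumors. Nox4 was highest in untreated 1 (2986 CPM) and 930 to 1938 CPM in the others, and Itgbl1, an integrin-like secreted protein, was lowest in untreated 4 (523 CPM, against 888 to 1799). Kif26b, a kinesin of noncanonical Wnt signaling, spanned 1290 to 2937 CPM, the metalloprotease Adam12 953 to 1376 CPM and Pappa, which cleaves IGF-binding proteins, 431 to 1215 CPM. For none of the 6 did the groups separate. Of the F genes, Col3a1 ranged from 2614 to 4431 CPM, Col1a1 from 987 to 6186 CPM and Pdgfra, the PDGF receptor of fibroblasts, from 120 to 286 CPM. Q genes were still present, with Abca8a at 48.7 to 552 CPM, Gsn at 66.2 to 232 CPM and Scara5 at 12.9 to 239 CPM. Pi16 (7.85 to 74.9 CPM), Cd34 (9.42 to 48.3 CPM) and Dpp4 (4.32 to 40.6 CPM) were scarcer, and each Q gene but Dpp4 was highest in untreated 1.

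Genes that the rule did not use followed A. Set against nuclei outside the F rule of the same tumor, 291 of 7828 genes with enough signal (3.72%) were at least 2-fold higher in A-rich members in all 8 tumors, 11 of them rule genes. The contrast is the rule's own and has no test. Of weak members the same count was 4 of 7621 genes, all 4 of them F genes (Lum, Dcn, Pdgfra and Fbln1). Genes outside the rule were ranked by their smallest ratio over the tumors. Leading the A-rich members was Brinp3 (log2 ratio 4.26 ± 0.42, SD over 8 tumors, 5 CPM added). Next were Itga11 (3.51 ± 0.28), the collagen-binding integrin chain of fibroblasts, Csmd1 (3.70 ± 0.52) and Fap (3.42 ± 0.23), a membrane protease of activated stroma. Others ranked lower but had larger mean ratios than Fap, among them Chl1 (3.76 ± 0.62) and Edil3 (3.67 ± 0.54). Fap was at 717, 889, 749 and 735 CPM in the untreated and 348, 642, 411 and 430 CPM in the Minnelide tumors, against 27.9 to 85.5 CPM outside the F rule. In weak members the log2 ratio of Fap was 0.30 ± 0.54 and that of Itga11 was -0.22 ± 0.34.

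The lists of matrix genes differed in how many genes passed this limit. Outside the rule genes, 7 of 10 FACIT and other matrix collagens passed 2-fold in all 8 tumors, led by Col12a1 (3.24 ± 0.29), which decorates collagen I fibrils, as did 4 of 6 fibrillar collagens, led by Col5a2 (3.16 ± 0.25), which sets fibril diameter. Among matricellular proteins 8 of 15 did so, among them Smoc2, Ccn4 (2.91 ± 0.22) and Fn1 (fibronectin, 2.39 ± 0.31). Among proteoglycan and hyaluronan genes 5 of 11 did, including Acan (2.63 ± 0.31), while Vcan was at -0.78 ± 0.52. Basement membrane genes, made by vessels, muscle and many tumor cells, differed from these, with 0 of 10 past 2-fold and Col4a5 at -1.74 ± 0.51. Of 17 genes that modify or cross-link collagen, 5 passed, led by the prolyl hydroxylase P4ha3 (3.10 ± 0.39). Elastic fiber genes gave 3 of 14 (Fbn1, Fbln2 and Mfap5). The proteases and inhibitors gave 8 of 24, among them Mmp16 (3.30 ± 0.36) and the collagenase Mmp13 (2.65 ± 0.26).

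Signaling genes were more divided. Of 18 TGF-β family genes 3 passed 2-fold in all tumors. The activin subunit Inhba (2.92 ± 0.49) led, while Tgfb1 (-0.07 ± 0.39) and the receptor Tgfbr1 (-0.53 ± 0.44) did not pass. Contractile genes, the mark of myofibroblasts, gave 2 of 13, Fhl2 (2.81 ± 0.46) and Cald1 (2.31 ± 0.51). Acta2, smooth muscle actin, was low throughout, at 11.7 to 170.5 CPM, with a ratio of 1.15 ± 0.80. Transcription factors passed in 5 of 18, with Prrx1, a mesenchymal factor, at 2.63 ± 0.66 and Runx1 at 2.55 ± 0.61. Among secreted factors, the vessel-stabilizing Angpt1 (2.88 ± 0.62) and Igf1 (2.67 ± 0.53) were high and Vegfa (-0.30 ± 0.41) was not. Tnfsf11, the osteoclast differentiation factor RANKL, stood at 3.15 ± 0.41, and with Alpl, the alkaline phosphatase of bone (2.43 ± 0.52), it made 2 of 6 bone lineage genes past 2-fold. Cell cycle genes went the other way, counted here at any size of difference and not at 2-fold. Of 27, 0 were higher and 22 lower in all 8 tumors, against 1356 and 1712 of all 7828 genes. Top2a was at -0.97 ± 0.37.

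**Figure D2:**
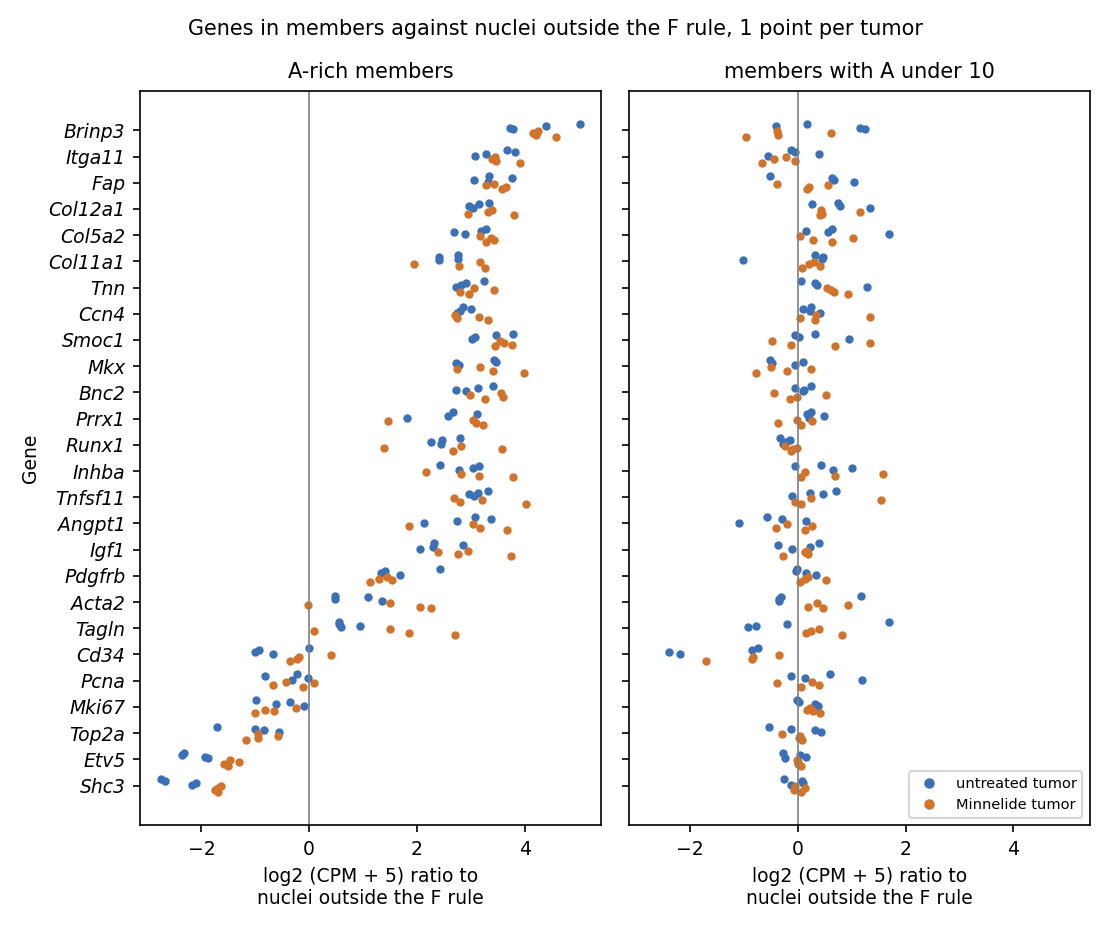
Log2 ratio of CPM (5 added) to nuclei outside the F rule, 1 point per tumor, for A-rich members (left) and members with A under 10 (right). In A-rich members Brinp3 to Igf1 lie to the right of 0 in every tumor and Etv5 and Shc3 to the left, whereas weak members scatter around 0.

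Markers of other cell types differed by list in A-rich members. Endothelial markers took 0.0339 to 0.105% of their UMIs, against 0.0710 to 0.282% outside the F rule, and these ranges overlapped. The 1.19 to 1.38% in endothelial-gated nuclei is set by the gate, which requires these markers. Macrophage markers took 0.0114 to 0.0301%, against 0.0228 to 0.0813% outside the F rule. Pericyte markers (0.0502 to 0.0845%) and Schwann markers (0.0809 to 0.153%) lay level with or above the 0.0356 to 0.0649% and 0.0323 to 0.154% outside the F rule. Tenocyte markers were higher, at 0.0165 to 0.0281% against 0.00275 to 0.0048%. Myocyte markers ranged from 0.0225 to 0.80%, highest in untreated 1 and Minnelide 2. Against the quiescent group, compared in 7 tumors since untreated 4 had 8 such nuclei, 35 of 7921 genes (0.442%) were at least 2-fold higher in members in every tumor, 6 of them rule genes and the others led by Brinp3, Grb14, Edil3 and Itga11. The 3 genes that were 2-fold lower in every tumor, Cd34, Gsn and Dpp4, belong to Q. Quiescent nuclei carried medians of 50.8 to 257.5 tumor marker UMIs per 10,000 in the 8 tumors, so tumor transcripts were present on both sides of this contrast.

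To ask whether Minnelide changed the abundance of these nuclei, shares were compared over tumors with an exact two-sided permutation test, which with 4 against 4 cannot go below 0.0286. Members made up 58.6, 75.0, 86.3 and 85.6% of F-rule nuclei in the untreated and 81.6, 80.1, 78.0 and 77.8% in the Minnelide tumors (exact p = 0.83). Of all filtered nuclei they were 15.7, 36.9, 24.6 and 6.29% against 25.9, 8.6, 11.9 and 14.1% (exact p = 0.486), and the groups overlapped. A-rich members were 6.91, 6.98, 9.33 and 3.51% against 5.35, 3.61, 2.64 and 4.04% of filtered nuclei, again overlapping. With every nucleus thinned to 1000 UMIs, members held a median of 778 ± 10.2 genes (SD, n = 4) untreated and 772 ± 4.97 genes (SD, n = 4) with Minnelide (exact p = 0.400). After adjustment over the 3 measures the exact p-values were 0.83, 0.729 and 0.729.

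**Figure D3:**
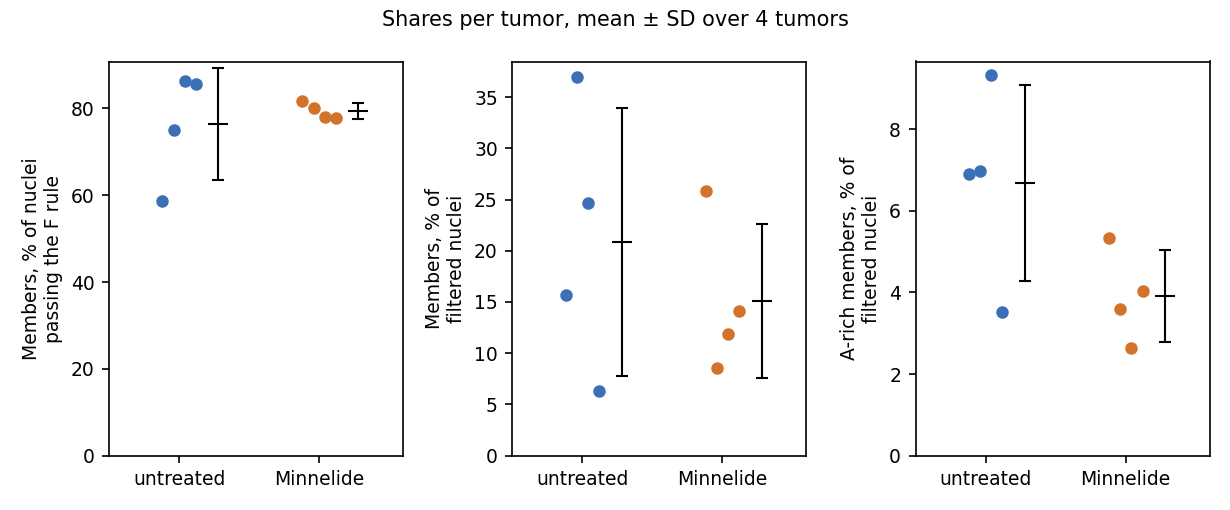
Share of members among F-rule nuclei and among all filtered nuclei, and share of A-rich members, in percent, for 4 untreated and 4 Minnelide tumors, with mean ± SD. The groups overlap in each panel, and untreated tumors spread most, from 6.29 to 36.9% of filtered nuclei.

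Expression in members was compared on UMIs summed per tumor, with edgeR's quasi-likelihood test. At an adjusted p under 0.05 it called 0 of 12280 genes (0%) in members, where 743 had an unadjusted p under 0.05, and 0 of 10224 (0%) in A-rich members, where 734 did. DESeq2 called 18 genes in members (0.147%) and 26 in A-rich members (0.254%). In simulated member data edgeR recovered 62 of 92 genes changed 4-fold but 8 of 108 changed 2-fold, so smaller changes were mostly out of reach. Tumor markers moved with the groups. In A-rich members their median was 19.2, 43.2, 41.2 and 43.0 per 10,000 in the untreated and 100.8, 54.4, 102.4 and 69.6 in the Minnelide tumors, and in endothelial nuclei 13.7 to 40.3 and 42.6 to 73.1. Their part in the values below was not tested.

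The smallest p in A-rich members was that of Sned1 in edgeR and of Adamts6 in DESeq2. Sned1 (ENSMUSG00000047793, GRCm39 chromosome 1, 93163558 to 93228787) is a matrix protein gene that overlaps Mterf4 on the opposite strand. It was at 641, 690, 688 and 934 CPM untreated and 255, 194, 328 and 171 CPM with Minnelide, without overlap (log2 fold change -1.62 ± 0.23, SE, adjusted p = 0.232 in edgeR). Nuclei outside the F rule had 84.1 to 232 and 23.1 to 62.1 CPM. Adamts6 (ENSMUSG00000046169, chromosome 13, 104424343 to 104633203), a secreted metalloprotease gene, was at 627, 540, 545 and 639 CPM against 1107, 1394, 1083 and 1112 CPM (1.02 ± 0.15, SE, adjusted p = 0.232 in edgeR). Its groups overlapped in endothelial nuclei, at 129 to 331 and 115 to 231 CPM. DESeq2 called both. Orai2, a store-operated calcium channel gene, was at 50.9 to 59.3 and 22.9 to 27.9 CPM. Col4a5, at 62.8 to 83.9 and 116.5 to 262 CPM in A-rich members, was more abundant outside the F rule (242 to 804 CPM). Tumor markers were also higher there than in A-rich members, and their part in the Col4a5 values was not tested.

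**Figure D4:**
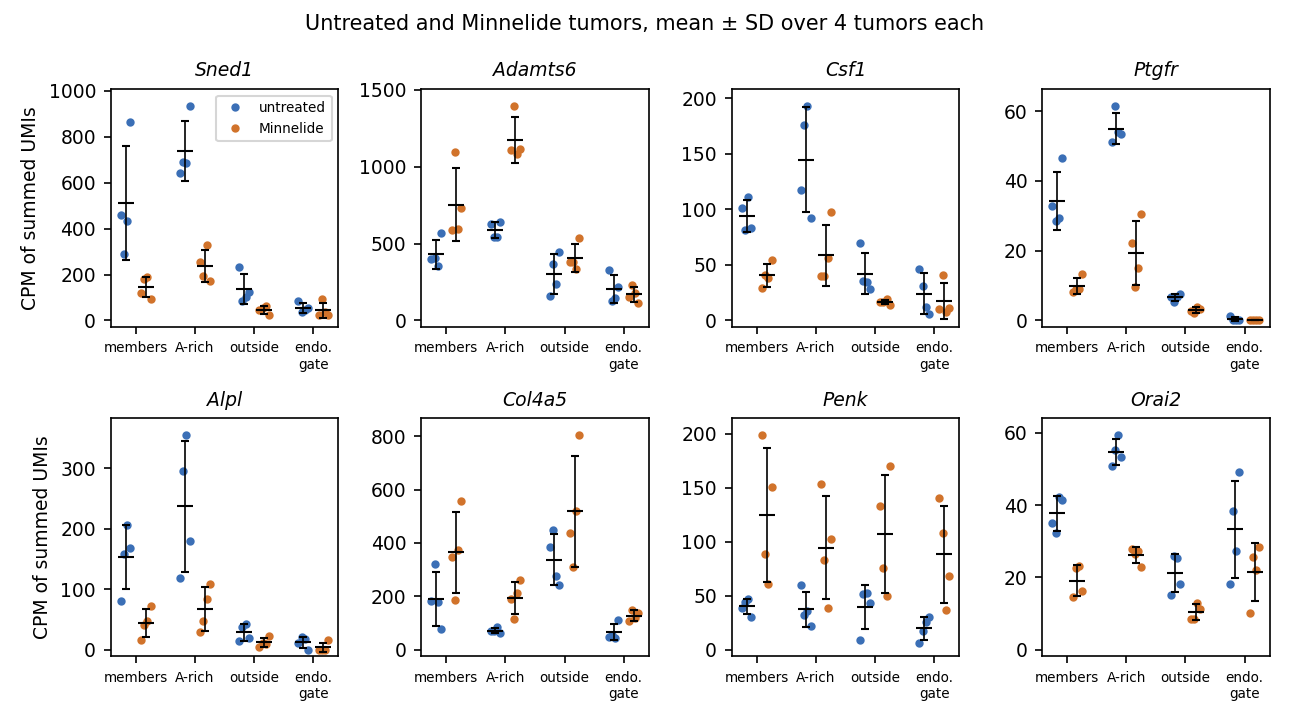
CPM of summed UMIs (linear axes) for 8 genes in members, A-rich members, nuclei outside the F rule and endothelial-gated nuclei, 1 point per tumor, with mean ± SD over 4 tumors. In A-rich members Sned1, Ptgfr, Alpl and Orai2 lie lower and Adamts6 and Col4a5 higher in all Minnelide tumors, and none passed edgeR's threshold.

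In all members the smallest p among lower genes was that of Ptgfr, the prostaglandin F receptor, at 32.7, 28.6, 29.4 and 46.5 CPM untreated and 8.19, 9.11, 8.96 and 13.2 CPM with Minnelide (log2 fold change -1.75 ± 0.26, SE, adjusted p = 0.779 in edgeR). It was listed at 0 in endothelial nuclei of 7 tumors, and in A-rich members it was at 51.2 to 61.4 and 9.53 to 30.5 CPM. Ifit3, Gabrg3, Csf1 and Kcnh1 followed. Csf1, the macrophage growth factor, had 81.2 to 111 CPM untreated and 29.2 to 54.0 CPM with Minnelide. On the higher side were Ado, Penk, Slc39a6, Ptchd4 and Fzd7. Penk, the enkephalin precursor, had 30.3 to 46.6 and 61.1 to 198 CPM in members, but also 6.10 to 30.7 and 36.7 to 140 CPM in endothelial nuclei.

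Gene groups were read by counts, since edgeR called 0 of their genes. In members, 11 of 19 interferon response genes had an unadjusted p under 0.05 and a negative fold change, 0 had a positive one, and the group's median log2 fold change was -0.83. Over all 12280 genes, 499 had such a p with a negative fold change and 244 with a positive one, and the median was -0.03. Leukocyte markers lay the same way in these members, with 8 of 8 macrophage genes (median -0.70) and 5 of 5 osteoclast genes (median -1.25) negative, 1 of each at that level. Osteoclast markers took 0.0179 to 0.136% of member UMIs untreated and 0.014 to 0.0391% with Minnelide, and their part in the interferon and bone lineage values was not tested. Ifit3 was at 3.03 to 4.08 CPM untreated and 0.230 to 0.958 CPM with Minnelide. These values rest on few UMIs per tumor, 25, 37, 29 and 3 untreated and 11, 2, 1 and 2 with Minnelide. In A-rich members 4 of 11 tested interferon genes had such a p with a negative fold change, against 381 of all 10224 genes. Interferon genes took 0.0206 to 0.0571% of member UMIs untreated and 0.0163 to 0.0236% with Minnelide. Outside the F rule they took 0.0185 to 0.0534% and 0.0122 to 0.0179%, without overlap, so the lower share was not particular to members. In the quiescent group and in endothelial-gated nuclei the ranges of the groups overlapped. Of 9 bone lineage genes 3 had an unadjusted p under 0.05 and a negative fold change in members (Alpl, Ibsp and Sp7), with a group median of -1.17. In A-rich members Alpl was at 118, 296, 354 and 179 CPM untreated and 29.3, 46.6, 84.2 and 109 CPM with Minnelide, and Sp7, the osteoblast factor osterix, was at 13.9 to 26.7 and 3.60 to 12.7 CPM. Cytokine and chemokine genes gave 3 of 16 (Csf1, Cxcl1 and Il1r1), all negative. All 33 cell cycle genes had a positive fold change (median 0.54), as had 9 of 9 tumor markers (median 0.64), with 0 and 1 at an unadjusted p under 0.05, while 5674 of all 12280 genes were positive. Fibrillar collagens gave 0 of 9 in either direction, with a median of -0.10. RNA polymerase II and TFIIH genes, which include the complex that triptolide binds, gave 0 of 22 with a median of 0.01. As shares of UMIs, 0 of 26 lists passed the exact permutation test after adjustment, in members or in A-rich members. On its own no list could have passed, since the smallest possible p of 0.0286 stays above 0.05 when adjusted over 26 lists. Tumor markers in A-rich members reached that smallest p. They took 0.254 to 0.450% of UMIs untreated and 0.552 to 0.983% with Minnelide, without overlap. The A-rich cut was itself chosen after tumor marker levels were seen. In all members the groups overlapped, at 0.517 to 1.30% and 0.763 to 1.81% (exact permutation p = 0.143, unadjusted).

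Whether the Minnelide effect differed between members and the quiescent group was tested as an interaction in 7 tumors, where 534 of 12041 genes had an unadjusted p under 0.05 and edgeR called 0 (0%). Pdlim1 came nearest (difference of log2 fold changes 1.80, adjusted p = 0.0722 in edgeR). Between A-rich members and nuclei outside the F rule it called 0 of 13184 (0%), and 990 had such a p. There Sned1 differed by -0.18 ± 0.34 (SE) and Adamts6 by 0.41 ± 0.33 (SE), so neither was shown to be particular to these nuclei.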

How the data were processed

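Nuclei of 8 tumors were profiled by droplet 3' single-nucleus RNA-seq. The deposited values are raw UMI counts per gene and nucleus, without normalization. The authors' methods give bcl2fastq 2.20 and Cell Ranger 7.0.1 with mm39 and intronic reads, whereas the file headers name Cell Ranger 9.0.1. The 19059 features include 13 mitochondrial genes. Barcode and feature tables are the authors' own.

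Nuclei with at least 1000 UMIs and under 5% mitochondrial UMIs were kept. Free RNA was not removed and no doublets were dropped, and Scrublet at 0.8% per 1000 nuclei marked 5.29 to 13.7% of members. Endothelial gates required at least 4 markers and 100 UMIs per 10,000, and myocyte gates 4 and 500. Counts were summed per tumor (20 nuclei or more) and tested with edgeR 4.0.16 (TMM, filterByExpr, quasi-likelihood F) and DESeq2 1.42.0, with Benjamini-Hochberg adjustment, after a check on simulated data. Single values were compared by exact permutation, with all splits of the tumors enumerated in Python 3.11.15. Ratios used genes at 20 CPM or more in either class. The tumor is the replicate, and p-values measure the spread between tumors. The members and gene lists were chosen with earlier results of these data known. Genes named are those of the rule, those with the smallest p, those leading a ratio, members of the fixed lists, and Sned1. The labels do not assign a treatment response to tumors, so good and poor responders were pooled.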

Additional observations from a re-analysis of the deposited data

Results flagged for a closer look

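In groups of 4 tumors, 66 groups of values were examined for a tumor far from the other 3, and 13 were found, where chance gives about 1 in 20. Of these, 8 were in untreated 1. Its A-rich members had fewer tumor marker UMIs (19.2 per 10,000, next 41.2), less Adam12 (1046 CPM, next 1248), more Nox4 (2986 CPM, next 1278) and more Pappa (1215 CPM, next 777). They also had more endothelial (0.105% of UMIs, next 0.0444), smooth muscle (0.0337%, next 0.0127), myocyte (0.80%, next 0.195) and adipocyte markers (0.0133%, next 0.00101). In untreated 4 Itgbl1 was low (523 CPM, next 1271) and Sned1 high (934 CPM, next 690). Minnelide 4 had more tenocyte markers (0.0281% of UMIs, next 0.0179), Minnelide 2 more Adamts6 (1394 CPM, next 1112) and Minnelide 1 more Strbp (335 CPM, next 252).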

How the results depend on the processing

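The share differences (Minnelide minus untreated) stayed at an exact p above 0.05 under every alternative but 1. Members low in tumor markers, a subset chosen after the levels were seen, turned the difference in their share of F-rule nuclei from 3.02 to -19.6 percentage points (exact p = 0.0286). Low meant under 50% of the tumor's median outside the F rule. By that cut 36.4, 18.9, 26.5 and 21.0% of nuclei outside the F rule were low untreated. With Minnelide 7.25, 21.9, 4.62 and 10.4% were. Tumor marker levels thus enter this p, and it does not measure abundance alone. Of all 17 alternatives 10 gave a positive difference in the member share of F-rule nuclei. Leaving out single tumors moved this difference from -2.90 to 6.32, that of the share of all nuclei from -10.6 to -0.409, and that of genes at 1000 UMIs from -10.0 to -1.67. edgeR's 0 calls in members and A-rich members held without each tumor and under the other edgeR alternatives run, while DESeq2 called 18 and 26 genes, and 3 in the quiescent group. The interaction with the quiescent group was unstable. It gave 79 genes with no filter on low counts, 1 at 2000 UMIs or more, 8 with the rule applied at 1000 UMIs, and 0 to 93 without single tumors (93 without untreated 2, 5 without Minnelide 2, 2 without untreated 3, 1 without untreated 1). The cause was not tested. It could not be fitted with F of at least 60, A at least 3 above Q, or members low in tumor markers. The interaction with nuclei outside the F rule gave 0 to 1 (1 without Minnelide 1). Genes 2-fold higher than in the quiescent group numbered 36 to 52 without single tumors, 130 for A-rich members and 154 at A of 80 or more. Of 317 refits of 21 named genes, all kept their direction. Named genes were chosen largely for a small p in these same tumors, which the refits reuse, so this is no independent support. Removing nuclei with 2 or more genes of another cell type left 1 member and was not run. No paired analysis was possible because the labels carry no replicate numbers. The numbers used here only name tumors, and the barcodes shared by same-number tumors do not show that these tumors were paired.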
